A study of Mus musculus with 6 samples.

Results

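Matrix metalloproteinases (MMPs) and their tissue inhibitors (TIMPs) were examined in cultured mdx myoblasts that had received the Gpr18 agonist PSB-KD107 or vehicle. The genes were taken by symbol from the deposited table of counts and comprised 6 metalloproteinases (Mmp2, Mmp3, Mmp9, Mmp11, Mmp13 and Mmp14) and 3 inhibitors (Timp1, Timp2 and Timp3), that is 9 of the 47069 genes listed. Both groups consisted of satellite cells, the stem cells of skeletal muscle, from mdx mice, which lack dystrophin, and were kept as proliferating cells in serum with FGF2. Treated cells received PSB-KD107 at 10 μM for 2 days according to the sample records, whose treatment field writes the compound as PSB-KD-1, whereas the methods of the study give less than a day. Control cells received the solvent, diluted DMSO. The study took the cells from 3 different mdx mice by sorting for Itgb1 and Itga7 and against Sca-1 (the product of Ly6a), CD45, CD31 and CD11b. The passage of the cells is not given in the sources used here. An age is given for the male mdx mice that were injected, and whether it also holds for the donors of the cells is not said. There were 3 libraries per group, numbered 1, 2 and 4 in the table, with 30917613 to 48756794 counts each.

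MMPs are zinc-dependent proteases that cut collagens, laminins, fibronectin and other proteins of the extracellular matrix, and most are secreted as inactive precursors whose propeptide has to be removed. TIMPs are small secreted proteins that bind the active site of the mature enzymes, and Timp2 has an added part, since together with membrane-bound Mmp14 it forms the complex on which the Mmp2 precursor is activated. In skeletal muscle these enzymes are known for remodeling the basement membrane around fibers and satellite cells, and Mmp9 is also a well-known product of leukocytes that enter dystrophic muscle.

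Counts per gene were converted to CPM, that is counts relative to a TMM-normalized library size. Treated and vehicle libraries were then tested against each other with edgeR's quasi-likelihood method over the 14165 genes that passed its filter on low counts, with Benjamini-Hochberg adjustment over all of them. Differences are given as PSB-KD107 minus vehicle on the log2 scale, with a standard error (SE) or a 95% interval. Of the 9 genes, 7 passed the filter. With edgeR's quasi-likelihood test, 0 of these 7 had an adjusted p-value under 0.05, as for all genes tested (0%), and the smallest adjusted p-value among them was 0.75. With a raw p-value below 0.05 there were also 0 of 7, against 9.4% of all genes tested, and DESeq2 called 0 of 7, against 2.86%. The vehicle and PSB-KD107 libraries overlapped for each of the 7, while 15.8% of all genes tested did not overlap, 9.2% with higher and 6.59% with lower values in the treated libraries. The log2 difference was below 0 for 5 of the 7, and for 50.1% of all genes tested. Their median log2 difference was -0.02, beside a median of -0.00074 for all genes tested. These tests compare libraries whose spread may be partly technical, and in bulk RNA fewer cells of a type and less RNA per cell cannot be told apart.

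**Figure D1:**
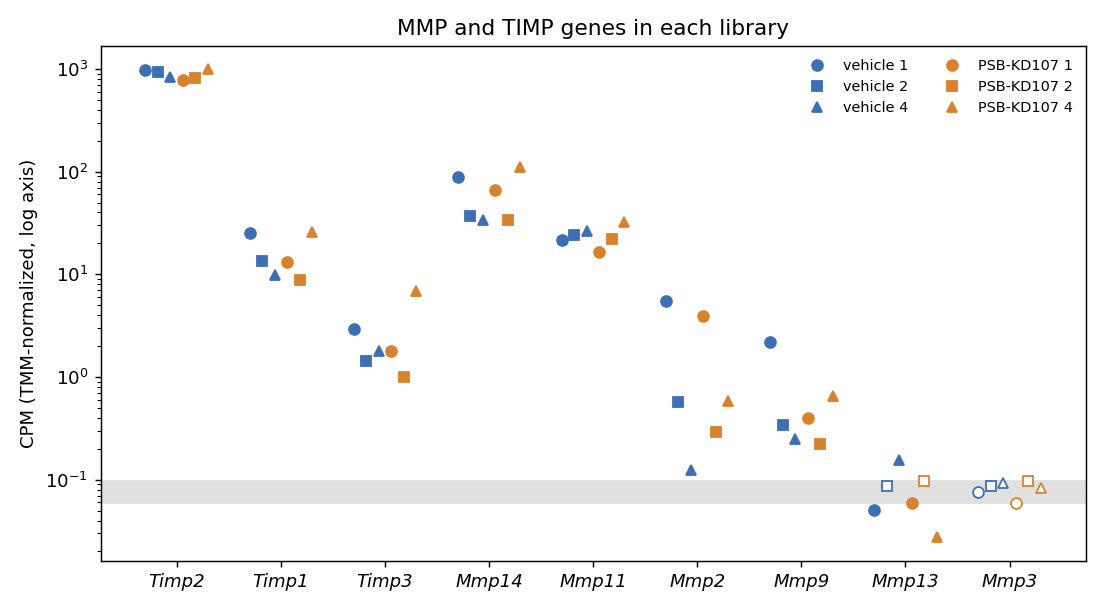
CPM (TMM-normalized, log axis) of the 9 genes in each of the 6 libraries, vehicle in blue and PSB-KD107 in orange, with the shape giving the number of the library. Open symbols stand for 0 counts and are drawn at the level of 3 counts in that library, the grey band spans these levels (0.0596 to 0.0962 CPM), and the groups overlap for each gene with counts.

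Levels of different genes were compared per length, as FPKM (CPM divided by the kilobases covered by the gene's annotated exons). Timp2 (ENSMUSG00000017466, chromosome 11 from 118301069 to 118355740 in GRCm38) was by far the most abundant, with 198.5 to 254.3 FPKM. It made up between 80.7% and 89.8% of the summed FPKM of the 9 genes in each library. Timp1 followed with a mean of 18.1 FPKM (9.83 to 29.3), Mmp14 with 10.3 FPKM (5.66 to 18.6) and Mmp11 with 8.62 FPKM (5.95 to 11.7), with overlapping ranges. Within every library Timp1 was above Mmp14 and Mmp11, while the order of Mmp14 and Mmp11 changed between libraries. With the longest transcript in place of all exons, Mmp14 had a mean of 19.0 FPKM and Timp1 18.2 FPKM. The order of Timp1 and Mmp14 therefore depends on the length used. Mmp2, Timp3 and Mmp9 lay lower, at means of 0.545, 0.325 and 0.192 FPKM over the 6 libraries, again with overlapping ranges. Mmp11 and Mmp14 together held between 90.8% and 98.9% of the summed FPKM of the 6 metalloproteinases.

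Transcripts of the 3 inhibitors outweighed those of the 6 metalloproteinases in every library. Other MMP genes are not in these sums, among them Mmp15 with a mean of 20.3 FPKM, so the ratios below hold for the 9 genes only. The summed FPKM of the 3 TIMPs was 281.5, 256.2 and 225.2 with vehicle (libraries 1, 2 and 4, the order kept throughout) and 213.7, 219.4 and 284.5 with PSB-KD107. The 6 metalloproteinases summed to 24.9, 15.2 and 15.4 FPKM with vehicle and to 18.4, 13.8 and 30.7 FPKM with PSB-KD107. The ratio of the TIMP sum to the MMP sum was therefore 11.3, 16.9 and 14.6 in the vehicle libraries and 11.6, 15.9 and 9.28 in the PSB-KD107 libraries, and these values overlap between the groups.

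**Figure D2:**
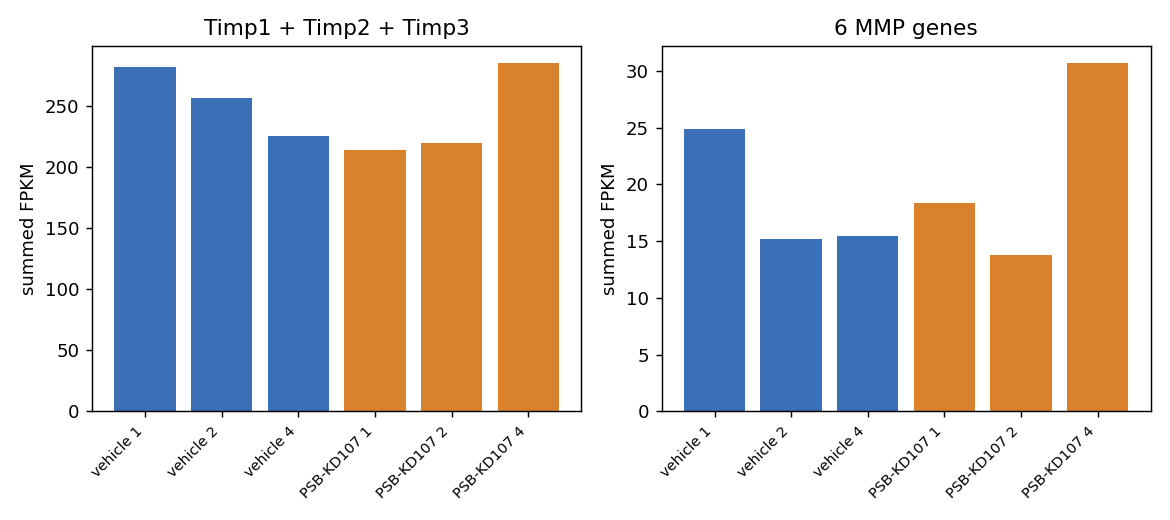
Summed FPKM of the 3 TIMP genes (left) and of the 6 metalloproteinase genes (right) in each library, with bars from 0, vehicle in blue and PSB-KD107 in orange. The TIMP sums lie between 213.7 and 284.5 FPKM and the MMP sums between 13.8 and 30.7 FPKM, with PSB-KD107 library 4 the highest in both.

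The stretch around the start of transcription is printed for the genes with an entry, among which Mmp3 and Mmp13 differ from the others in the motifs they carry. RefSeq promoters of 300 bases (250 before and 50 after the start, GRCm38.p6) were given for 7 of the 9 genes, all but Mmp2 and Mmp9. Both strands were searched for TGANTCA (the site of AP-1, which reads the same on both strands), TATAAA (the TATA box) and GGGCGG (the GC box, CCGCCC on the other strand), none of which overlap each other here. The start is that of RefSeq. For Mmp11 and Timp2 (minus strand) and Timp3 (plus strand) it lies inside the annotated gene, which begins at 75936496, 118355740 and 86300372. Below are the 75 bases before and 25 after the RefSeq start, 5′ to 3′, with the matches in capitals.
Mmp3, chr9:7445747-7445846, plus strand: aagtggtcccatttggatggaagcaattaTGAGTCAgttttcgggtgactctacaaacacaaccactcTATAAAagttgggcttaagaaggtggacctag
Mmp13, chr9:7272439-7272538, plus strand: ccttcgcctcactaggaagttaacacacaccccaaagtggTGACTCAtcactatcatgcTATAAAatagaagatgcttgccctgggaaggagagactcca
Mmp14, chr14:54431523-54431622, plus strand: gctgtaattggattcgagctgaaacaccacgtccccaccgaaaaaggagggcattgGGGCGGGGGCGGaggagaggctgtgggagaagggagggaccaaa
Mmp11, chr10:75932478-75932577, minus strand: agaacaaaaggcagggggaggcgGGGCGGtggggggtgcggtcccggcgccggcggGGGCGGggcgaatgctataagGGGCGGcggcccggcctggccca
Timp1, chrX:20870091-20870190, plus strand: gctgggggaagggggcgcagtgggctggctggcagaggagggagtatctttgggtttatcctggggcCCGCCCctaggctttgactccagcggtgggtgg
Timp2, chr11:118355387-118355486, minus strand: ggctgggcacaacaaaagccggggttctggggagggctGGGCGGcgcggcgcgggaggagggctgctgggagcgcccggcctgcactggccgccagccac
Timp3, chr10:86300337-86300436, plus strand: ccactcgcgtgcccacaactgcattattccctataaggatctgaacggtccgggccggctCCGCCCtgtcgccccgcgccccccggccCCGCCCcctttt

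Mmp3 and Mmp13, the genes at or near 0 counts, each held a TGANTCA match, beginning 46 and 35 bases before the start, and a TATAAA match, beginning 7 and 16 bases before it. The other 5 promoters held neither of these motifs but each had at least 1 GC box. Of all 32851 promoters of this length, 7.81% held TGANTCA, 13.6% held TATAAA, 1.54% held both and 35.7% held GGGCGG. Mmp3 and Mmp13 also had the lowest GC content over the 300 bases, at 40.0% and 43.7%, compared with 55.0% to 68.7% for the other 5 (the median of all promoters is 52.7%). A match to these letters is a description of the sequence, and binding was not measured. Whether the motifs go with the levels of these genes was not tested.

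Mmp14 (ENSMUSG00000000957, chromosome 14 from 54431612 to 54445364) encodes a membrane-anchored protease that cuts collagen at the cell surface and activates the Mmp2 precursor. It had 88.5, 36.7 and 33.8 CPM with vehicle and 66.2, 33.7 and 110.6 CPM with PSB-KD107. PSB-KD107 library 4, vehicle library 1 and PSB-KD107 library 1 were high, the remaining 3 were low and close to one another, and the groups overlapped. The mean was 53.0 ± 30.8 CPM with vehicle and 70.2 ± 38.6 CPM with PSB-KD107 (SD, n = 3), a log2 difference of 0.40 (95% interval -0.92 to 1.73, edgeR quasi-likelihood adjusted p = 0.848). Without PSB-KD107 library 4 it was -0.085.

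The gelatinases Mmp2 and Mmp9 cut denatured collagen and the type IV collagen of basement membranes. Mmp2 (ENSMUSG00000031740, chromosome 8 from 92827291 to 92853420) had counts of 216, 20 and 4 with vehicle and of 199, 9 and 21 with PSB-KD107, that is 5.51, 0.573 and 0.124 CPM against 3.96, 0.289 and 0.578 CPM. The libraries numbered 1 of both groups stood far above the other 4, and the range between the vehicle libraries alone was 44.4-fold. The log2 difference of -0.36 had a 95% interval from -3.92 to 3.20 (edgeR quasi-likelihood adjusted p = 0.955), and it was 2.20 without vehicle library 1 and -2.26 without PSB-KD107 library 1.

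Mmp9 (ENSMUSG00000017737, chromosome 2 from 164940780 to 164955850) had 86, 12 and 8 counts with vehicle and 20, 7 and 24 counts with PSB-KD107. Vehicle library 1 held most of these reads, at 2.19 CPM, while the other vehicle libraries had 0.344 and 0.248 CPM and the PSB-KD107 libraries had 0.397, 0.225 and 0.660 CPM. The log2 difference was -1.12 (95% interval -3.36 to 1.12, edgeR quasi-likelihood adjusted p = 0.75), and without vehicle library 1 it was 0.52. The lower mean with PSB-KD107 was thus not seen without that library.

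Mmp11 (ENSMUSG00000000901, chromosome 10 from 75923222 to 75936496), or stromelysin 3, is unusual among secreted MMPs in that furin activates it inside the cell. It had 21.5, 24.3 and 26.6 CPM with vehicle and 16.5, 22.2 and 32.6 CPM with PSB-KD107. The lowest and the highest library were both treated ones, and the vehicle libraries lay between them. The mean was 24.1 ± 2.58 CPM with vehicle and 23.8 ± 8.15 CPM with PSB-KD107 (SD, n = 3), and the log2 difference of -0.02 had a 95% interval from -0.65 to 0.61 (edgeR quasi-likelihood adjusted p = 0.984). Exons of Mmp11 share 155 bases with Chchd10 on the opposite strand, and as the strand setting of the counting is not given in the sources used here, reads in that stretch cannot be assigned with certainty.

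Mmp3, or stromelysin 1 (chromosome 9 from 7445822 to 7455975), had 0 counts in all 6 libraries, which at 3 counts allows a level of up to 0.0596 to 0.0962 CPM in a library. Mmp13, a collagenase (chromosome 9 from 7272514 to 7283331), had 2, 0 and 5 counts with vehicle and 3, 0 and 1 counts with PSB-KD107. Neither gene could be compared between the groups at this depth, a limit that covers counting error only.

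Timp2 was the least variable of the 7 tested genes and also the one measured most closely. It had 984.2, 938.9 and 833.9 CPM in the vehicle libraries and 773.2, 816.1 and 990.8 CPM in the PSB-KD107 libraries. The treated libraries numbered 1 and 2 lay below all vehicle libraries and the one numbered 4 lay just above them. The means were 919.0 ± 77.1 CPM with vehicle and 860.0 ± 115.2 CPM with PSB-KD107 (SD, n = 3), a log2 difference of -0.10 (95% interval -0.44 to 0.24, edgeR quasi-likelihood adjusted p = 0.857). A 2-fold change of Timp2, which would be 1.0 on this scale, lies outside that interval.

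Timp1 (ENSMUSG00000001131, chromosome X from 20870166 to 20874735), an inhibitor that binds the Mmp9 precursor and is induced in many injured tissues, had 25.4, 13.4 and 9.77 CPM with vehicle and 13.3, 8.73 and 26.1 CPM with PSB-KD107. Vehicle library 1 and PSB-KD107 library 4 were about equally high. Its mean was 16.2 ± 8.16 CPM with vehicle and 16.0 ± 8.98 CPM with PSB-KD107 (SD, n = 3), and the log2 difference was -0.01 (95% interval -1.26 to 1.23, edgeR quasi-likelihood adjusted p = 0.996). It was -0.55 without PSB-KD107 library 4 and 0.27 without PSB-KD107 library 2.

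Timp3 (ENSMUSG00000020044, chromosome 10 from 86300372 to 86349506), which is held in the matrix and also inhibits the sheddase Adam17, had 116, 50 and 58 counts with vehicle and 91, 31 and 251 counts with PSB-KD107. PSB-KD107 library 4, at 6.91 CPM, was the highest by far, and PSB-KD107 library 2, at 0.994 CPM, was the lowest. The log2 difference was 0.65 (95% interval -1.18 to 2.47, edgeR quasi-likelihood adjusted p = 0.819), and without PSB-KD107 library 4 it was -0.55. Its exons share 1733 bases with Syn3 on the opposite strand, a gene with only 10 counts over the 6 libraries.

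**Figure D3:**
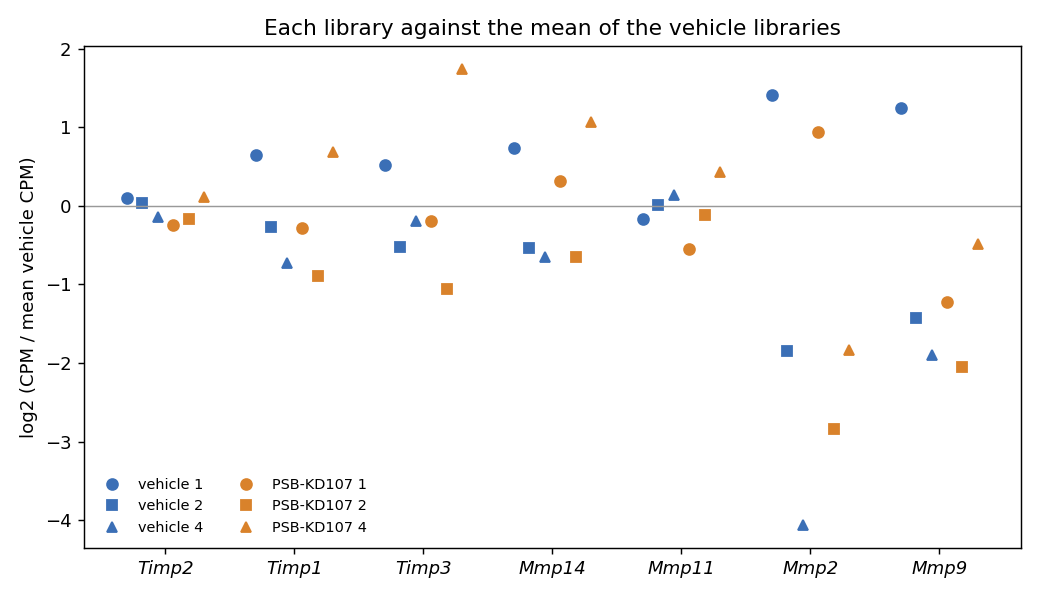
Log2 ratio of the CPM in each library to the mean CPM of the 3 vehicle libraries, for the 7 genes tested, with vehicle in blue, PSB-KD107 in orange and the shape giving the library number. PSB-KD107 library 4 lies above all vehicle libraries for 5 of the 7 genes and PSB-KD107 library 2 lies below all of them for 5. The shares over all genes tested were not computed.

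Taken alone, the treated libraries lay on both sides of the vehicle libraries. PSB-KD107 library 4 was above all vehicle libraries for Mmp11, Mmp14, Timp1, Timp2 and Timp3, with log2 ratios to the vehicle mean from 0.11 for Timp2 to 1.74 for Timp3, and within their range for Mmp2 and Mmp9. PSB-KD107 library 2 was below all vehicle libraries for Mmp9, Mmp14, Timp1, Timp2 and Timp3, with log2 ratios from -0.17 for Timp2 to -2.05 for Mmp9. For Mmp14 the difference to the lowest vehicle library was minute (33.7 against 33.8 CPM). PSB-KD107 library 1 was below the vehicle libraries for Mmp11 and Timp2 and within their range for the other 5 genes. The share of all genes tested that lay above or below in each treated library was not computed. Nothing about these genes in particular can therefore be read from the counts. Mmp2, Mmp9, Mmp14 and Timp3 had their 3 highest libraries in vehicle 1, PSB-KD107 1 and PSB-KD107 4, a pattern held by 4 of the 7 genes and by 17.5% of all genes tested. These 3 libraries were not set beforehand and follow the order seen in the 7 genes themselves. The 2 shares therefore cannot be weighed against each other. For Mmp2 and Timp3 the order was close at its end (0.578 against 0.573 CPM, and 1.81 against 1.80 CPM).

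The libraries were checked for other cell types that make these proteins. The 8 myoblast markers summed to 6060 to 6540 CPM with vehicle and to 5990 to 6140 CPM with PSB-KD107, with the largest part from Des (desmin). Des was highest in PSB-KD107 library 1, vehicle library 1 and PSB-KD107 library 4 (3930, 3650 and 3600 CPM, against 2780 to 3000 CPM in the others). In the same 3 libraries, where Mmp2, Mmp9, Mmp14 and Timp3 were also highest, the myogenic factor Myod1 was lowest (399, 515 and 523 CPM, against 765 to 1060 CPM). The cadherin gene Cdh15 was lowest there too (600, 637 and 572 CPM, against 1180 to 1370 CPM). Myf5, Itga7, Sdc4 and Vcam1, of the same list, did not follow this split. Myf5 had 26.8 CPM in PSB-KD107 library 4, but 3.57 CPM in vehicle library 1 and 4.23 CPM in PSB-KD107 library 1. In the same order Itga7 had 1090, 959 and 799 CPM, Sdc4 117, 173 and 186 CPM and Vcam1 26.4, 52.5 and 59.8 CPM. The part of these differences in the MMP and TIMP levels was not tested. The satellite cell factor Pax7 had 68.8, 49.9 and 60.0 CPM with vehicle and 34.0, 26.8 and 35.1 CPM with PSB-KD107 (edgeR quasi-likelihood adjusted p = 0.209, DESeq2 adjusted p = 0.00192). The 8 markers of fibroblasts and fibro-adipogenic progenitors summed to 3.55 to 8.19 CPM with vehicle and to 2.44 to 14.3 CPM with PSB-KD107, with Lum at 0 counts in every library and none of the 4 tested genes called by either tool. Their sum was highest in PSB-KD107 library 4 (14.3 CPM), vehicle library 1 (8.19 CPM) and PSB-KD107 library 1 (6.26 CPM), the libraries that were also highest for Mmp2, Mmp9, Mmp14 and Timp3, and the part of such cells in these levels was not tested. Of this sum in PSB-KD107 library 4, 8.36 CPM were Ly6a, the Sca-1 gene, which had 0.155 to 1.29 CPM in the other libraries. Pdgfrb, of the same list, had 3.69 CPM in PSB-KD107 library 4 and 3.83 CPM in vehicle library 1, but 0.874 CPM in PSB-KD107 library 1. It had 0.706 to 2.39 CPM in the others.

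The 8 leukocyte markers summed to 2.39 to 4.90 CPM with vehicle and to 0.688 to 6.58 CPM with PSB-KD107, with the macrophage genes Adgre1, C1qa and Tyrobp at 0 counts in all libraries. Most of the sum was Itgam, the CD11b gene, and Cd68. Itgam was highest in vehicle library 1, the library with the most Mmp9, at 4.24 CPM, and had 0.385 to 2.72 CPM in the others. The lowest, 0.385 CPM, was PSB-KD107 library 4, which had the next highest Mmp9 (0.660 CPM). Cd68 was highest in PSB-KD107 library 1, at 3.84 CPM, and had 0.22 to 1.19 CPM in the others. The part of leukocytes in the Mmp9 level was not tested. Of the 6 neutrophil markers, 5 had 0 counts throughout and the sum did not exceed 0.062 CPM. Endothelial markers summed to 1.52 to 6.07 CPM with vehicle and 2.47 to 9.12 CPM with PSB-KD107, with Emcn at 0. Tenocyte and Schwann cell markers summed to 48.9 to 99.1 CPM and 72.7 to 120.0 CPM, nearly all of it Scx. Like the fibroblast sum, both sums were highest in PSB-KD107 library 1, vehicle library 1 and PSB-KD107 library 4. The endothelial sums there were 9.12, 6.07 and 3.19 CPM. Those of the tenocyte and Schwann list were 120.0, 99.1 and 73.3 CPM, the last close to PSB-KD107 library 2 (72.7 CPM). The part of such cells in the MMP and TIMP levels was not tested.

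Other members of the MMP family were read from the same fit, from a list that also held genes without counts. Of 17 further MMP genes, 5 could be tested and 6 had 0 counts in every library. In edgeR's quasi-likelihood test, 0 of the 5 passed an adjusted p-value of 0.05, and 2 were higher and 2 lower with a raw p-value below 0.05, against 6.47% and 2.93% of all genes tested. Mmp28 (epilysin), a secreted MMP with a furin site, had 10, 16 and 13 counts with vehicle and 74, 59 and 67 counts with PSB-KD107. The groups stood clearly apart, at 0.372 ± 0.105 and 1.74 ± 0.231 CPM (SD, n = 3), a log2 difference of 2.21 (SE 0.34, edgeR quasi-likelihood adjusted p = 0.184, DESeq2 adjusted p = 7.99e-05). Mmp23, a transmembrane form, went the other way, from 8.52, 8.28 and 8.0 CPM with vehicle to 3.40, 5.23 and 1.65 CPM with PSB-KD107, a log2 difference of -1.27 (SE 0.41, edgeR quasi-likelihood adjusted p = 0.428, DESeq2 adjusted p = 0.0673).

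Mmp19, a secreted basement membrane protease, had 4.80, 2.81 and 3.01 CPM with vehicle and 7.75, 4.91 and 6.08 CPM with PSB-KD107, a log2 difference of 0.82 (SE 0.31, edgeR quasi-likelihood adjusted p = 0.491). Mmp15 and Mmp16, membrane-type relatives of Mmp14, complete the tested genes and are named after their values were seen. Mmp16 had a log2 difference of -0.59 (SE 0.23, edgeR quasi-likelihood adjusted p = 0.509). Mmp15, at a mean of 20.3 FPKM, was the most abundant of all MMP genes measured per exon length, above Mmp14 with 10.3 FPKM. With the longest transcript as length Mmp14 had 19.0 FPKM, and Mmp15 was not computed that way, so this order holds for the exon length only. The log2 difference of Mmp15 was -0.01, with a 95% interval from -0.44 to 0.41. Mmp12, the macrophage elastase, had 21 counts in PSB-KD107 library 4 and 1 count in the other 5 libraries together, all in PSB-KD107 library 1.

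**Figure D4:**
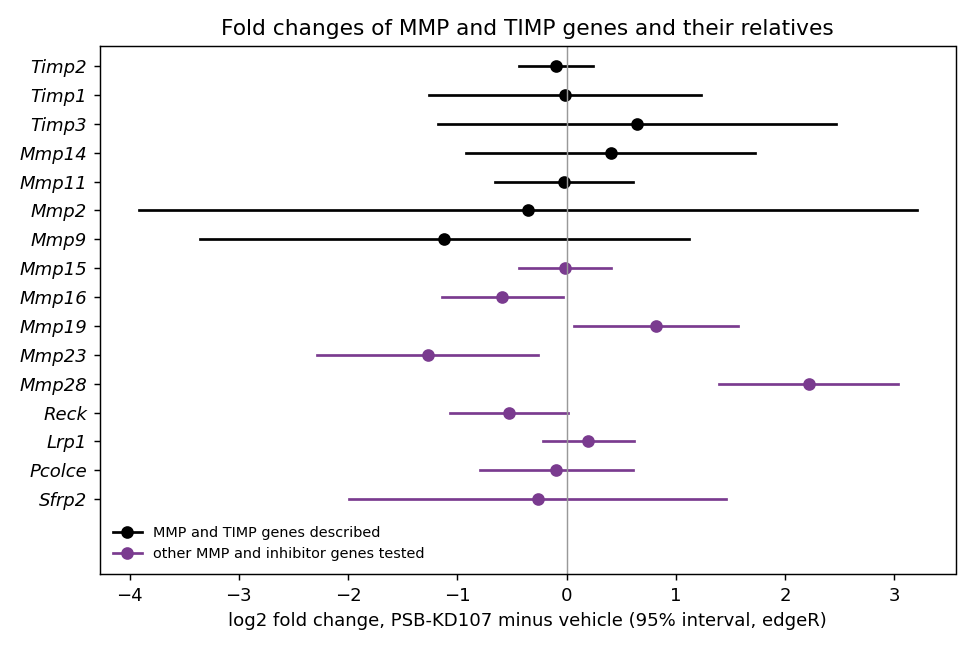
Log2 difference (PSB-KD107 minus vehicle) with its 95% interval from edgeR, for the 7 MMP and TIMP genes tested (black) and for the tested genes of the lists of other MMPs and of other inhibitors (purple). The intervals of all 7 black genes include 0, and those of Mmp28 and Mmp19 lie above it and those of Mmp16 and Mmp23 below it.

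Among other inhibitors, Reck, a membrane-anchored protein that restrains Mmp2, Mmp9 and Mmp14, had 4.03, 4.47 and 4.28 CPM with vehicle and 2.44, 3.14 and 3.27 CPM with PSB-KD107. The groups did not overlap, and the log2 difference was -0.53 (SE 0.22, edgeR quasi-likelihood adjusted p = 0.541, DESeq2 adjusted p = 0.299). Lrp1, the endocytic receptor that clears MMPs and TIMPs, had 175.0 ± 33.1 and 201.0 ± 24.0 CPM (SD, n = 3). Sfrp2, a secreted Wnt-binding protein, had a log2 difference of -0.27 (SE 0.71). Timp4 had 9, 2 and 0 counts with vehicle and 10, 3 and 0 counts with PSB-KD107 and was not tested.

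The genes that activate MMP precursors or hold them at the cell surface showed 0 higher and 1 lower with a raw p-value below 0.05, of 13 tested (all genes tested: 6.47% higher, 2.93% lower). The lower one was Cav1, the main protein of caveolae, with 28.2, 15.2 and 11.2 CPM with vehicle and 2.90, 4.97 and 0.825 CPM with PSB-KD107. The log2 difference was -2.65 (SE 0.69, edgeR quasi-likelihood adjusted p = 0.326, DESeq2 adjusted p = 0.00168). Cd44, which docks Mmp9, and Itgav, an integrin subunit, had log2 differences of 0.22 and 0.30 (SEs 0.15 and 0.20). Serpine2, an inhibitor of plasminogen activators, had 24.6, 12.3 and 11.9 CPM with vehicle and 16.0, 9.08 and 65.9 CPM with PSB-KD107. As for Timp3, PSB-KD107 library 4 was the highest and PSB-KD107 library 2 the lowest, and the log2 difference was 0.90 (SE 0.76).

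In the related ADAM family, 1 of 7 tested genes was higher and 1 lower with a raw p-value below 0.05, against 6.47% and 2.93% of all genes tested. Adam12, a myoblast protease linked to fusion, had 599, 284 and 319 counts with vehicle and 177, 66 and 119 counts with PSB-KD107, and all treated libraries were lower in CPM (15.3, 8.13 and 9.90 against 3.52, 2.12 and 3.27). The log2 difference was -1.90 (SE 0.33, edgeR quasi-likelihood adjusted p = 0.189, DESeq2 adjusted p = 2.03e-05). Adam9 had 124.9 ± 4.34 CPM with vehicle and 167.7 ± 20.3 CPM with PSB-KD107 (SD, n = 3), a log2 difference of 0.43 (SE 0.11), and Adam8 one of -0.64 (SE 0.30). Neither was called by either tool. Among the 11 ADAMTS genes tested, 0 had a raw p-value below 0.05 in edgeR's quasi-likelihood test, against 9.4% of all genes tested. DESeq2 called 0 of the 11, against 2.86%. With so few genes, nothing about this list can be read from these counts. The smallest edgeR quasi-likelihood adjusted p-value among them was 0.623. The genes with the smallest p-values in that list were Adamts7, Adamts1 and Adamts10, with log2 differences of -0.49, 0.27 and -0.73 (SEs 0.25, 0.15 and 0.47).

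Of all 69 tested genes on these lists, together with the transcription factors and substrates described further on, 6 were higher and 5 lower with a raw p-value below 0.05 (15.9%, against 9.4% of all genes tested). DESeq2 called 4 of them, namely Mmp28, Ets2, Adam12 and Cav1, against 2.86% of all genes tested, and edgeR's quasi-likelihood test called 0. Mmp28, Adam12 and Cav1 were called by DESeq2 with any 1 library left out. Ets2 was not called without vehicle library 2, vehicle library 4, PSB-KD107 library 1 or PSB-KD107 library 4 (DESeq2 adjusted p from 0.137 to 0.417), and Mmp23 was called without PSB-KD107 library 2 (adjusted p = 0.000658) or library 4 (adjusted p = 0.01). Other genes gained a DESeq2 call with 1 library left out, namely Mmp19 without vehicle library 1 (DESeq2 adjusted p = 0.0185), Adam9 without PSB-KD107 library 1 (0.00356), Lama5 without PSB-KD107 library 2 (0.00396) and Sparc without PSB-KD107 library 4 (0.00106).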

How the data were processed

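Cultured mdx satellite cells were sequenced in 3 vehicle and 3 PSB-KD107 libraries. After poly(A) selection and paired-end sequencing, alignment by the authors used STAR and mm10, and they deposited raw counts for each gene without normalization. The counting program, annotation and strand setting are not given in the sources used here. Libraries numbered 4 in the table were assigned to a group only, as the sample records number 1, 2 and 3. Low counts were filtered with filterByExpr (minimum count 10) and scaled with TMM factors in edgeR 4.0.16 (R 4.3.3), and its quasi-likelihood test was run with a threshold of 0.05 on p-values adjusted by Benjamini-Hochberg. Standard errors were taken as the log2 difference over the root of the F statistic. Coordinates and exon lengths came from GENCODE M21 (GRCm38), which holds 46574 of the 47069 identifiers, and promoters from RefSeq. With 3 libraries against 3, an exact permutation test cannot go below p = 0.1. The scripts were tested on simulated counts with set changes. There edgeR recovered 59% of 4-fold and 12% of 2-fold changes, with 4 false calls among 75. DESeq2 recovered 81% and 35%, with 49 false calls among 165. A gene without an edgeR call may thus still differ, and a DESeq2 call may be false. The alternatives were DESeq2 1.42.0, limma-voom (limma 3.58.1), RLE factors, no filter, a replicate block and each library left out. The genes named were the MMP and TIMP genes and, from each list, the 3 with the smallest p-values and those DESeq2 called, of which 1 is not reported here. The members, lists and tests were chosen with earlier results of these data known.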

Additional observations from a re-analysis of the deposited data

How the results depend on the processing

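With another tool or scaling, the count of all genes called moved from 0 to 407 (DESeq2) and 8 (no filter), and stayed at 0 with limma-voom and RLE factors. The lists of related genes moved from 0 to 4 of 71 with DESeq2, which called 407 of 14698 genes in all. Of the 7 MMP and TIMP genes tested (8 with no filter), 0 were called in each of these. Leaving out 1 library gave between 0 and 764 calls over all genes, 0 and 7 on the lists and 0 among the MMP and TIMP genes. The most, 764 of 15045 genes, came with DESeq2 without PSB-KD107 library 2. That fit called 7 of 71 genes on the lists and 0 of 7 MMP and TIMP genes. Over all fits with 1 library left out, edgeR called 0 genes each time and DESeq2 between 164 and 764. Over these fits the log2 difference spanned 0 for Mmp2 (-2.26 to 2.20), Mmp9 (-1.58 to 0.52), Mmp11 (-0.33 to 0.18), Mmp14 (-0.096 to 0.99), Timp1 (-0.57 to 0.47), Timp3 (-0.56 to 1.07), Mmp15 (-0.20 to 0.094), Serpine2 (-0.39 to 1.33) and Sfrp2 (-0.74 to 0.23). Timp2 stayed below 0 (-0.22 to -0.03). With limma-voom, Mmp2 was at 0.29. With the longest transcript as length, Mmp14 moved from 10.3 to 19.0 FPKM.

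The study names 3 mice as donors of the cells that received PSB-KD107 or vehicle, so each mouse may have given both cultures. No source used here says this outright, or whether a number marks a mouse. The main fit therefore left the libraries unpaired, as the numbers are not stated to pair them. Deviations from the group means correlated at 0.63, 0.52 and -0.13 for the libraries numbered 1, 2 and 4, and vehicle library 4 went with PSB-KD107 library 2 (0.65). With 3 libraries per group such deviations depend on each other, so these correlations cannot settle the pairing. A replicate block fitted to libraries 1 and 2 only gave 2456 edgeR calls (17.1%, and 7.97% lower), 24 of them on the lists and 3 among the MMP and TIMP genes, namely Mmp9, Timp1 and Timp2, each lower with PSB-KD107. Mmp14 was then at -0.28, Timp3 at -0.64, Sfrp2 at 0.046 and Serpine2 at -0.54. This fit leaves 1 degree of freedom per gene, and these 4 libraries without the block (added after seeing the data) gave 0 calls, with Mmp14 at -0.33, Timp3 at -0.64, Sfrp2 at 0.062 and Serpine2 at -0.56. All 7 tested genes were lower in the PSB-KD107 library than in the vehicle library for numbers 1 and 2, and all 7 were higher for number 4. The shares of all genes tested that did so were not computed, so this cannot be read as particular to the 7. With the block over all 6 libraries, edgeR called 0 genes, with Mmp2 at 0.060. DESeq2 with this block (added after seeing the data) called 638 of 13401 genes, with Mmp2 at 0.091. On the lists it called 8 of 69 genes, and among the MMP and TIMP genes 0 of 7.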

Other observations

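Transcription factors known to act on MMP promoters and proteins that MMPs cut were read from the same fit. Of the 12 AP-1, Ets and NF-kB factors tested, 2 were higher and 0 lower with a raw p-value below 0.05 (all genes tested: 6.47% and 2.93%), and DESeq2 called 1 (all genes tested: 2.86%). Ets2 had 31.4, 24.0 and 26.2 CPM with vehicle and 60.8, 35.1 and 78.7 CPM with PSB-KD107, a log2 difference of 1.10 (SE 0.30, edgeR quasi-likelihood adjusted p = 0.346, DESeq2 adjusted p = 0.0406). The AP-1 subunits Fosb and Fos also had higher values in all treated libraries, with log2 differences of 0.97 and 0.41 (SEs 0.35 and 0.19), and neither was called by either tool.

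Of the 15 matrix proteins tested, 1 was higher and 1 lower with a raw p-value below 0.05 (all genes tested: 6.47% and 2.93%), and 0 were called by edgeR's quasi-likelihood test or by DESeq2. Sparc, a collagen-binding protein, had 749.3, 656.7 and 648.8 CPM with vehicle and 485.0, 452.6 and 594.0 CPM with PSB-KD107, a log2 difference of -0.42 (SE 0.14, edgeR quasi-likelihood adjusted p = 0.435). The laminin chains Lama5 and Lamc1 had log2 differences of 0.60 and 0.46 (SEs 0.21 and 0.25).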
